A study of Ambystoma mexicanum with 17 samples.

Results

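The 100 genes described here had their highest median level in axolotl oropharyngeal endoderm explants of stage 37/38, a lower median at stage 39 and the lowest at stage 41. They were chosen by measured values of the 17 libraries. A count was divided by the total of its library and scaled to give CPM, the usual depth-corrected count, and levels were taken as log2(CPM + 10). Genes entered with a summed count of at least 100 and a count above 0 in at least 9 libraries, which 2931 of the 19649 genes in the table met. Of these 2931 filtered genes, 569 (19.4%) had stage medians in falling order and 500 (17.1%) in rising order, and the members are the 100 falling genes with the largest difference between 37/38 and 41. Because these medians set the membership, the differences between stages below describe the members. Fitted fold changes and p-values printed for members come from tests over the whole table and are no support for these differences. Members are referred to by rank, from 1 for the largest difference to 100 for the smallest.

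The tissue came from axolotl (Ambystoma mexicanum) embryos, cut out at stage 15 and cultured in L-15 medium with albumin and antibiotics until whole siblings reached the stage of harvest. RNA-seq gave 17 libraries, of which 6 are of stage 37/38, 6 of stage 39 and the other 5 of stage 41. The labels name no genotype and no treatment that differs between groups, and all groups share the isolated culture. They do not say how many explants or embryos went into a library, so p-values measure the spread between libraries, which may be partly technical. Each title also carries a letter, A to J for 9 libraries and K to R for the other 8. Both runs of letters hold all 3 stages, and their meaning is not given.

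The endoderm of the oropharynx forms the lining of the mouth and throat. In the axolotl, taste buds arise from it, and explants of this tissue grown on their own are known to form taste buds without contact with nerves. The identifiers are those of a Trinity assembly, in which a gene is a cluster of assembled transcripts and related genes share a component. The files do not pair the identifiers with names, and 0 of them matched the RefSeq gene table of the axolotl, so neither the members' functions nor markers of endoderm or of other cell types could be examined. The assembled sequences were not used here.

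Library totals ran from 67838 to 748726 counts. The highest was stage 41 replicate 2, and the other 4 libraries of stage 41 held 67838 to 204913. Thus 1 count was worth 1.34 CPM in the deepest library and 14.7 CPM in the shallowest.

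At stage 37/38 all members had a median above the middle value of the filtered genes, which a large fall above the floor of 0 CPM favours. Their median CPM at stage 37/38 ran from 40.9 to 1117, with 76 of 100 under 100 CPM and 10 at 200 CPM or more. Across the members the middle value of these stage medians was 67.8 CPM for stage 37/38, 20.8 for 39 and 0 for 41. For all 2931 filtered genes it was 38.9, 34.7 and 37.1 CPM. In bulk tissue such as this, fewer cells of a type and less RNA per cell cannot be told apart. On the log2(CPM + 10) scale the difference of medians between stages 41 and 37/38 ran from -4.82 to -2.32 over the members, with a median of -2.60. Over all filtered genes the median difference was -0.04. The 99th and 100th members stood at -2.32 and -2.32, and the next 2 genes in falling order, just outside, at -2.31 and -2.29.

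**Figure D1:**
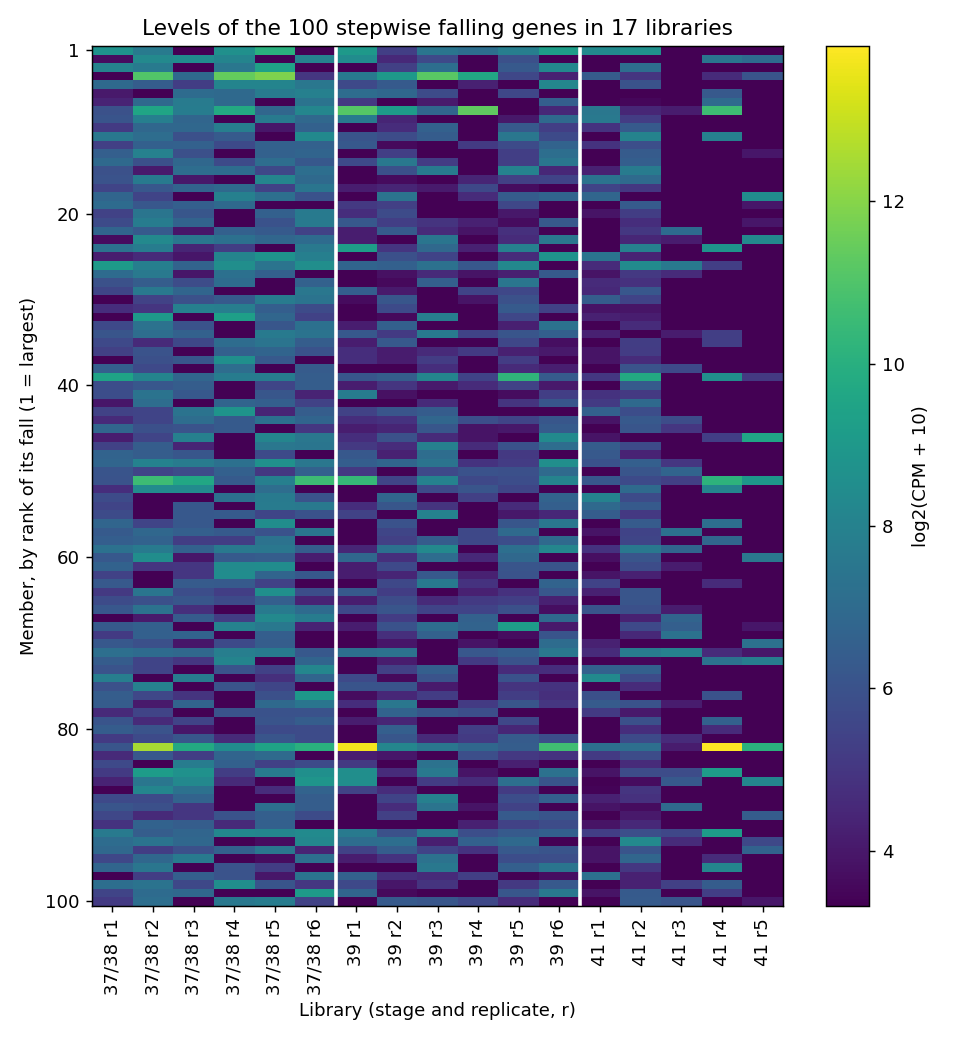
Level of each member, log2(CPM + 10), in rows from rank 1 to rank 100 and in columns for the 17 libraries, with white lines between stages and r for the replicate. Most rows are at the floor of 0 CPM in stage 41 replicates 3, 4 and 5, while replicate 2 of that stage shows counts for 92 of the 100 members.

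The stage medians hid large differences between libraries of stage 41. Of the 100 members, 93 had a count in stage 37/38 replicate 1, 92 in replicate 2, 87 in replicate 3, 71 in replicate 4, 87 in replicate 5 and 83 in replicate 6. At stage 39 the numbers were 67, 89, 69, 56, 88 and 71 for replicates 1 to 6. At stage 41 they were 61 in replicate 1, 92 in replicate 2, 30 in replicate 3, 29 in replicate 4 and 21 in replicate 5. The deepest stage 41 library thus showed nearly as many members as the richest stage 37/38 library, and 3 libraries of stage 41 showed fewer than any library of the other stages. A median over 5 libraries is 0 once 3 of them hold no count. This was so for 70 of the 100 members, and for 12.2% of all filtered genes. The most common pattern was a count in 2 of the 5 stage 41 libraries, seen in 61 members and 10.7% of filtered genes. A count in 1 was seen in 9 members and 1.54% of filtered genes. Only 3 members had a count in all 5, against 31.2% of filtered genes. The rule favours low stage 41 medians, so these gaps follow in part from the choice.

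The low libraries of stage 41 were those with titles in letters K to R. No count in any of these 3 libraries was found for 42 members, against 5.87% of filtered genes. A count in both stage 41 libraries of letters A to J was found for 55 members, against 82.3% of filtered genes. The rule favours genes with a low stage 41 median, and so with zeros at stage 41. Both differences from the filtered genes thus follow in part from the choice of members. The 3 K to R libraries held 67838 to 174870 counts. They also detected fewer genes in general, with a count for 75.6%, 61.7% and 59.7% of the filtered genes in replicates 3, 4 and 5, against 84.2% and 97.4% in replicates 1 and 2. Stage 37/38 replicate 4 had a similarly low total of 71698 counts and detected 56.8% of filtered genes. It held a count for 71 of the members. The rule favours genes present at stage 37/38, so the gap between this library and the 3 of stage 41 follows in part from the choice of members. With every library thinned to 60000 counts, members with a count numbered 71 to 88 at stage 37/38, 39 to 70 at stage 39 and 16 to 73 at stage 41, so stages 39 and 41 overlapped and 41 replicate 2 exceeded 37/38 replicate 4. The part of library depth and of the letter run in the low stage 41 medians was not tested.

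**Figure D2:**
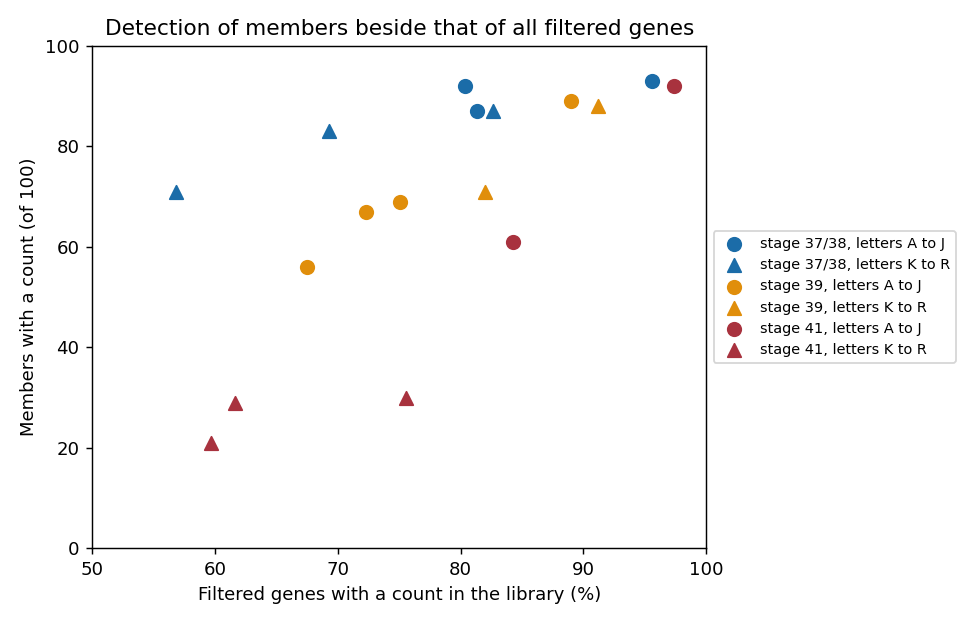
Members with a count in a library (vertical axis, of 100) against the percentage of all filtered genes with a count in the same library (horizontal axis), 1 symbol per library, coloured by stage, with circles for titles in letters A to J and triangles for K to R. The 3 red triangles, at 21, 29 and 30 members, lie below all other libraries, and the red circle at 92 members lies among those of stage 37/38.

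Summed over the members, levels overlapped between all stages. The sum for stage 37/38 was 13523 ± 4815 CPM (SD, n = 6). Stage 39 gave 9413 ± 6513 CPM (SD, n = 6), and stage 41 gave 7571 ± 8242 CPM (SD, n = 5). Stage 39 replicate 1 with 22282 CPM and stage 41 replicate 4 with 22004 CPM stood above every library of stage 37/38, whose highest value was 20734. In both libraries 1 gene, the member of rank 82, supplied most of the sum, 61.0% and 70.1%, and without it the sums were 8680 and 6585 CPM. The median member level, which a single gene cannot move, was 70.4 ± 11.2 CPM for stage 37/38 (SD, n = 6) and 24.7 ± 12.8 for stage 39 (SD, n = 6). Stage 41 had 9.12 ± 17.8 CPM (SD, n = 5), from 4.88, 40.7, 0, 0 and 0 in replicates 1 to 5. No library of stage 39 or 41 reached the lowest stage 37/38 value of 51.97 CPM. The rule chose members for higher stage 37/38 medians in these same libraries, so this gap follows at least in part from the choice. In libraries left out of the choice the stages overlapped, as given below. By mean CPM in place of the median, 96 members were lower at stage 41 than at 37/38 and 62 were lower at both steps, which the choice also favours.

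Over all libraries together, the difference was divided almost evenly between the steps. The earlier step, from 37/38 to 39, held the larger part in 55 members and the later step in 45. The median change was -1.45 for the earlier and -1.24 for the later step on the log2(CPM + 10) scale, against -0.13 and 0.07 over all filtered genes. The rule required a fall at both steps, so this gap to the filtered genes is set by the choice. In 70 members the stage 41 median was 0 CPM, a floor that limits how large the later step can be. The near-even split is thus no measure of timing. Single members ranged widely, from 0.231% to 95.6% of the whole difference in the earlier step. At the low end was the member of rank 8, with a change of -0.01 at the earlier step and -3.51 at the later one. It is also the 1 member whose median CPM does not fall at both steps, being 245 CPM at stage 37/38 and 327 at stage 39, since a median of 6 values averages the middle pair on the log scale. Both steps share the stage 39 libraries, so they are not independent of each other. The runs of letters had unlike medians in the later step, but these rest on few libraries. Stages 37/38, 39 and 41 hold 3, 4 and 2 libraries in letters A to J and 3, 2 and 3 in K to R. With most stage 41 libraries in K to R, the choice of members favours a low stage 41 level there. In letters A to J the median member level was 6.21, 4.44 and 4.85 at stages 37/38, 39 and 41, with no later fall. All filtered genes had 5.67, 5.15 and 5.78 there. In letters K to R it was 6.55, 5.28 and 3.32, against 5.70, 5.89 and 5.30 for all filtered genes.

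The member with the largest difference, TRINITY_DN4632_c0_g9, ranged at stage 37/38 from 0 to 1057 CPM with a median of 289, and was without a count in replicates 3 and 6. At stage 39 it ranged from 28.9 to 577 CPM with a median of 195 and had a count in every library. At stage 41 it had 317 CPM in replicate 1 and 391 in replicate 2, and no count in replicates 3, 4 and 5, where 3 counts would be 22.2, 44.2 and 17.2 CPM. Counts were therefore present or absent in both the first and the last stage, and the groups overlapped throughout. Over all libraries, the stage 41 to 37/38 fold change fitted by edgeR's quasi-likelihood test was -0.995 on the log2 scale (SE 1.29, adjusted p = 0.9997), and that of stage 39 against 37/38 was -0.01 (SE 1.20, adjusted p = 0.996). The fitted change uses all counts of a stage and not the median. It was -0.37 without stage 37/38 replicate 5, and -1.52, -1.87, -0.63 and -0.61 without stage 41 replicate 1, 2, 3 and 5.

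This gene is 1 of 12 in its component, and another of them is the member of rank 3. The reads of the whole component did not vanish where the member did. The component summed to 1083 CPM in stage 41 replicate 3, 2565 in replicate 4 and 1207 in replicate 5, against 1157 and 2265 in replicates 1 and 2 and 1164 to 2285 at stage 37/38. By stage median the component also fell, with 1982, 1641 and 1207 CPM at stages 37/38, 39 and 41. This sum includes the members of rank 1 and rank 3, which the rule chose for such an order. Stage 41 replicate 4 held the highest component level of all 17 libraries with no count for the member. Its counts carry decimals, as when RSEM divides reads between similar sequences, so the separate level of TRINITY_DN4632_c0_g9 is uncertain.

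The second member, TRINITY_DN27874_c4_g3, had 239 to 341 CPM in 4 of the 6 stage 37/38 libraries, 2.74 CPM (1 count) in replicate 1 and no count in replicate 5. At stage 39 it had 347 CPM in replicate 1 and 0 to 49.8 in the other 5. At stage 41 it had no count in replicates 1, 2 and 3, 162 CPM (11 counts) in replicate 4 and 120 CPM (21 counts) in replicate 5. The stage 41 libraries that held it, replicates 4 and 5, lacked most other members, as did replicate 3, where it was absent too. It was also absent from the deepest library of all. The fitted log2 fold change of stage 41 against 37/38 was -1.96 (SE 1.63, edgeR adjusted p = 0.9997). Leaving out stage 41 replicate 4 moved it to -3.06. Its component has 3 genes, of which another is the member of rank 8, and the component summed to 12.0 CPM in stage 41 replicate 2 and 1739 CPM in replicate 4.

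The only members whose stage 37/38 and stage 41 libraries did not overlap were those of rank 31 and rank 49, singled out after their values were seen. Across all 2931 filtered genes 0.0682% had every stage 37/38 library above every stage 41 library, and these genes are the same 2. Since the rule chose members for this contrast, nothing is read from the count. Rank 49 had 101.2 to 395 CPM at stage 37/38 with a median of 187 and a count in every library. At stage 39 it had 19.5 to 369 CPM with a median of 90.9. At stage 41 it had 53.7, 81.5, 22.2, 0 and 0 CPM in replicates 1 to 5. Its values at stage 39 overlapped those of both other stages. The fitted log2 fold change of stage 41 against 37/38 was -2.49 (SE 0.97, edgeR adjusted p = 0.9997). Rank 31 had 16.4 to 233 CPM at stage 37/38, 0 to 70.4 at stage 39 with no count in 3 of 6 libraries, and 4.88, 5.34, 0, 0 and 0 CPM at stage 41. Its counts were too low to pass edgeR's filter. A group with 1 library fewer separates as many genes or more. Without stage 41 replicate 2 the groups did not overlap in 7 members and in 20 of the 2931 filtered genes. Without stage 37/38 replicate 2, 3, 4 or 5 this was so for 5, 4, 6 or 4 members and for 10, 5, 10 or 5 filtered genes.

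For most members the groups were mixed. Every stage 41 library lay below 5 of the 6 stage 37/38 libraries in 12 members and below 4 of 6 in 19. In 19 members no stage 37/38 library exceeded the highest stage 41 library. In 56 of the 100 members, at least 1 stage 41 library stood above the stage 37/38 median. The same values chose the members, and no share over all filtered genes is set beside these counts. They describe the members only.

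Among the members, rank 4 had the highest stage 37/38 median, 1117 CPM, made of unlike libraries. It had 2117, 2748 and 3729 CPM in replicates 2, 4 and 5 but 0, 116 and 21.8 CPM in replicates 1, 3 and 6. At stage 39 it ran from 9.54 to 2350 CPM, and at stage 41 it had 73.2, 21.4, 0, 14.7 and 57.2 CPM in replicates 1 to 5. All stage 41 libraries were at or below 73.2 CPM, and the other stages held both high and low libraries. The rule favours a low stage 41 median, and the part of letters and depth was not tested for this gene. Its fitted log2 fold change of stage 41 against 37/38 was -5.24 (SE 1.55, edgeR adjusted p = 0.9997). It was the 1 member called under any alternative tried: DESeq2 gave it an adjusted p of 0.04999 in this comparison, and edgeR without a filter on low counts one of 0.000218. The rule chose this gene for the same contrast, so these p-values are a description and no support for its fall. Over all genes, DESeq2 called 2 of 1985 in this comparison, and edgeR without the filter 8 of 16101.

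Rank 82 shows how far median and mean can part. It had the highest summed count of the members, 5147, and a count in all 17 libraries. At stage 37/38 it ran from 60.2 to 5832 CPM with a median of 771, and at stage 39 from 76.2 to 13602 with a median of 227. At stage 41 it had 137, 138, 7.42, 15419 and 1081 CPM in replicates 1 to 5. Its highest value of all was thus in a stage 41 library, and 1 library of each stage stood far above the others of its stage. The fitted log2 fold change of stage 41 against 37/38 was 1.08 (SE 1.39, edgeR adjusted p = 0.9997), opposite in sign to the difference of its medians. It was picked for description after its values were seen.

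**Figure D3:**
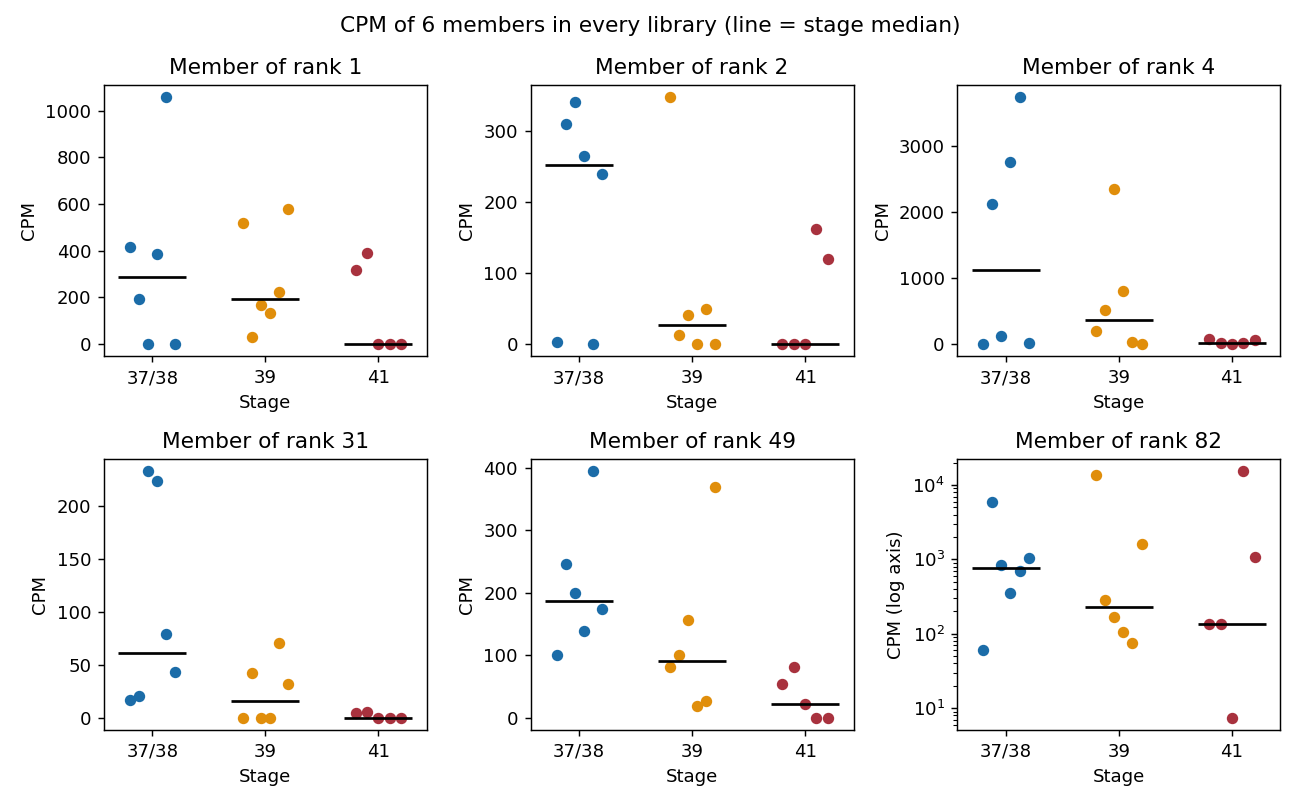
CPM of 6 members in every library by stage, 1 point per library and a line at the stage median; the axis for the member of rank 82 is logarithmic. Ranks 31 and 49 have no stage 41 library within the range of stage 37/38, whereas ranks 1, 2, 4 and 82 have stage 37/38 and stage 41 libraries at similar levels.

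Across the whole table, edgeR's quasi-likelihood test with Benjamini-Hochberg adjustment called no gene at an adjusted p under 0.05 in any comparison of stages. Of 1985 tested genes 0% were called for stage 39 against 37/38, 0% for stage 41 against 39 and 0% for stage 41 against 37/38, and the unadjusted p was under 0.05 for 87, 47 and 53 genes. DESeq2 called 15, 0 and 2 genes in these comparisons, and limma-voom 0 in each. Of the 15 genes 0 were lower at stage 39, and of the 2 genes 1 was lower at stage 41. Of the 100 members 75 passed edgeR's filter on low counts, 0 were called in any comparison, and 0, 4 and 9 had an unadjusted p under 0.05. The choice of members favours low p-values for stage 41 against 37/38, so these numbers are not to be read against those of all genes. With the rule's own filter all 100 could be fitted, and 0 were called. In that fit 95 of 100 were lower at stage 41 than at 37/38 with a median log2 fold change of -1.55, against -0.02 over all 2931 genes, which the choice of members sets. The spread between libraries of 1 stage, as edgeR's common biological coefficient of variation, was 1.17.

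Chosen genes were also read in libraries that had no part in the choice. Each library was left out in turn, the rule was applied to the other 16, and the 100 genes so chosen were read in the library left out. Each gene there was nearer either to the stage 37/38 median or to the stage 41 median of the other libraries. In left-out libraries of stage 37/38, 39 to 61 of the 100 genes were nearer the stage 37/38 level, with a median of 51.5. In those of stage 39 the range was 23 to 65 with a median of 51. In those of stage 41 it was 41 to 76 with a median of 46. The ranges overlapped, and the highest value of all came from stage 41 replicate 2. A left-out library of stage 37/38 lay below the stage 37/38 level of the others by a median of 0.89 to 2.44 on the log2(CPM + 10) scale (differences of -2.44 to -0.89), and a left-out library of stage 41 differed from that level by -2.07 to -0.44. The stages overlapped in this measure too. The membership also moved: 63 to 73 of the members were chosen again without 1 library of stage 37/38, 72 to 79 without 1 of stage 39 and 54 to 71 without 1 of stage 41.

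The runs of letters were used in the same way. The rule was applied to 1 run, with a count required in at least 5 of its libraries, and the 100 genes chosen were read in the other run. Genes chosen in letters A to J had a median difference between stages 41 and 37/38 of -1.81 in that run and -0.36 in letters K to R, where 58 of 100 were lower at stage 41. Of all 1932 filtered genes 51.97% were lower there, with a median difference of -0.10. Genes chosen in letters K to R had a median difference of -3.61 in that run and 0.30 in letters A to J, where 35 of 100 were lower at stage 41. Of all 1384 filtered genes 48.0% were lower there, with a median difference of 0.04. A stepwise order in the second run was found for 21 and 15 of the 100 genes, against 22.5% and 11.4% of filtered genes. The stage 41 groups read here hold 3 and 2 libraries, so these medians rest on few values. Of the genes chosen within letters A to J and K to R, 20 and 17 were among the 100 members. Only 64 and 31 of the members passed the filter within these runs.

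The members themselves differed between the runs in size. In letters A to J their median difference between stages 41 and 37/38 was -1.30, with 84 of 100 lower at stage 41 and 37 in stepwise order. All filtered genes had a median difference of 0.13 there, with 45.0% lower and 10.8% in stepwise order. In letters K to R it was -2.995, with 87 lower and 68 in stepwise order, against a median difference of -0.11, 52.0% lower and 22.6% in stepwise order for all filtered genes. Both runs took part in the choice, so the shared direction is favoured by it. Most stage 41 libraries are in letters K to R, so the choice also favours a larger difference and more stepwise order there. Higher at stage 41 than at 37/38 were 16 members in letters A to J and 5 in letters K to R.

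**Figure D4:**
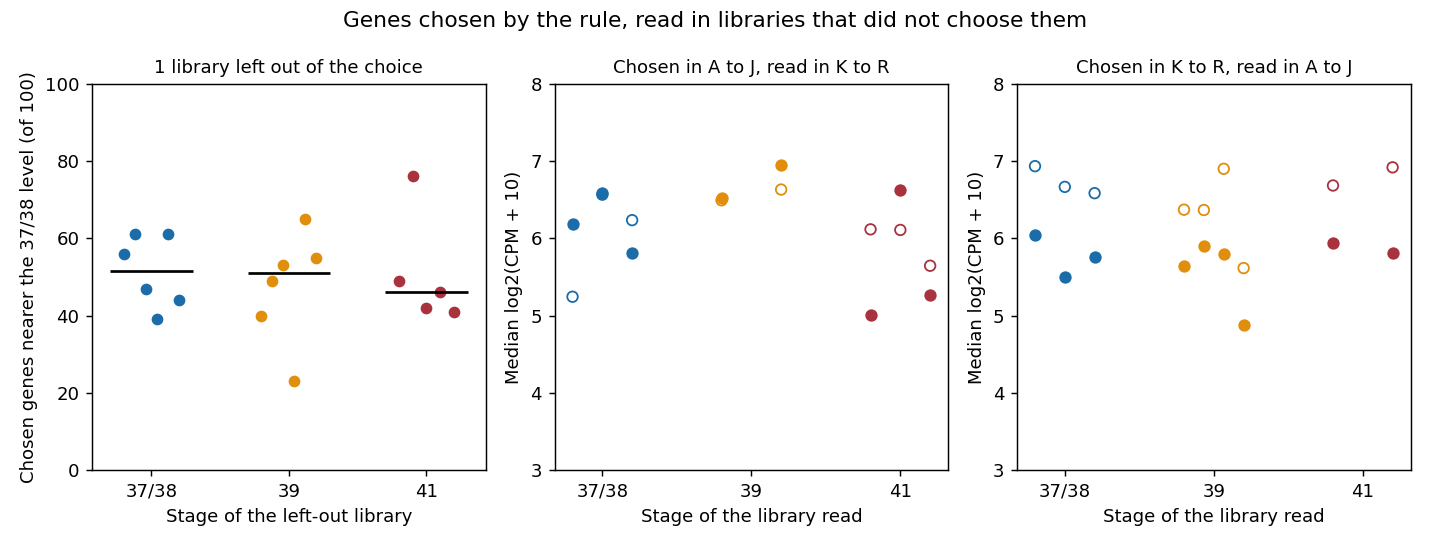
Left, for each left-out library, the number of the 100 genes chosen without it whose level there was nearer the stage 37/38 than the stage 41 median, with a line at the stage median. Middle and right, the median log2(CPM + 10) of the 100 genes chosen in 1 run of letters (filled) and of all filtered genes (open) in each library of the other run. The left panel shows medians of 51.5, 51 and 46 for stages 37/38, 39 and 41, with overlapping ranges.

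Some features of the members were not used by the rule. More than 1 transcript in the assembly's map belonged to 22 of the 100 members, against 9.42% of filtered genes, 7.68% of the other 469 stepwise falling genes and 8.80% of the 500 stepwise rising ones. A component shared with another gene was found for 37 members and 31.3% of filtered genes, and a count with decimals for 24 members and 25.3% of filtered genes. The members fell into 98 components, of which 2 held 2 members each. In the components that hold a member, 18 other filtered genes are no members. Of these partners 11 had a lower and 6 a higher median at stage 41 than at 37/38, their median difference was -0.09, and 2 were in stepwise falling order. The partners thus stood near all filtered genes, of which 51.8% had a lower median at stage 41.

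The members varied together only weakly within stages. For each gene the deviation of each library from its stage median was taken, and members were correlated in pairs over the 17 libraries. The median r of the 4950 pairs was 0.15 (quartiles -0.03 and 0.33), and that of all pairs of filtered genes was 0.06 (quartiles -0.14 and 0.25). An r over 0.5 was found for 8.95% of member pairs and 4.91% of all pairs. Genes measured in the same libraries share depth and its zeros, so these values are a description. The same libraries chose the members, and the rule favours zeros at stage 41. The gap between member pairs and all pairs may thus follow in part from the choice. The closest pair, at r = 0.90, was that of ranks 88 and 95, which come from different components. Next came ranks 51 and 82, at r = 0.88. Both had their highest stage 41 value in replicate 4.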

How the data were processed

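Expression was measured by single-end RNA-seq in 17 explant libraries. Per the submitters' processing notes, Trimmomatic, Bowtie2 and RSEM were used, with versions not given. The authors deposited expected counts per Trinity gene, collapsed from isoforms, and a map of gene to transcript identifiers (other, no measured unit). Of the values above 0, 8.79% were not whole. Stages, replicates and letters were read from the titles. The membership rule used the expected counts as deposited, with CPM from column sums. For the tests, counts were rounded and filtered with filterByExpr, scaled by TMM and fitted across all genes in all 17 libraries with edgeR 4.0.16 (1 coefficient per stage), with DESeq2 1.42.0 and limma 3.58.1 as alternatives, in R 4.3.3. Further alternatives changed the scaling, the filter, the pseudocount, the stage summary, the letter run or the libraries included. The pipeline was run on simulated counts with planted changes. The share of those changes that it called is not given here, so that run does not tell what 0 calls mean. Each SE was derived from the fold change and its F statistic. The members and lists were chosen with earlier results of these data known. Identifiers are printed for the 2 members with the largest difference, and other members are given by rank. The fixed lists of markers could not be used without gene names. Thinning was to 60000 counts per library. A count of 0 is set against 3 counts, which covers counting error only.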

Additional observations from a re-analysis of the deposited data

Results flagged for a closer look

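Within each stage, the library farthest from the others was sought with Dixon's gap test in 30 groups of values, and 9 were marked. Chance marks about 1 group in 20 where values are normally distributed and groups are independent and not chosen for their values. CPM and library totals were taken without a log, and their spread was uneven. Here ranks 4 and 82 were picked after their values were seen, and rank 82 makes up most of both marked sums, so the number marked is not to be read against that rate. The deepest library, stage 41 replicate 2, held 748726 counts when the rest of stage 41 held 67838 to 204913. Its median member level was 40.7 CPM, and that of the rest was 0 to 4.88. The summed level of the members was 22282 CPM in stage 39 replicate 1, when the other 5 had 5096 to 8843, and 22004 CPM in stage 41 replicate 4, against 1814 to 6473. The member of rank 82 reached 5832 CPM in stage 37/38 replicate 2, while the other 5 libraries had 60.2 to 1045. It had 13602 CPM in stage 39 replicate 1, against 76.2 to 1597, and 15419 CPM in stage 41 replicate 4, against 7.42 to 1081. TRINITY_DN27874_c4_g3 had 347 CPM in stage 39 replicate 1, against 0 to 49.8. The member of rank 4 had 2350 CPM in stage 39 replicate 3, against 9.54 to 809.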

How the results depend on the processing

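The membership depended on its settings. Of the 100 members, 60 were chosen again with a pseudocount of 50 and 48 with the stage mean in place of the median. Within letters A to J 20 were chosen again, of 64 that pass the filter there, and within letters K to R 17, of 31. When a count in all 17 libraries was required it was 2, and only 2 members pass that filter. Leaving out 1 library gave 54 to 79. The median member difference of -2.60 was -5.54 with a pseudocount of 1, -1.14 with one of 50, -1.52 with stage means, -1.30 within letters A to J and -1.40 without the 3 stage 41 libraries of letters K to R, the last chosen after seeing the data. Genes chosen in letters K to R and read in A to J had a median difference of 0.10 with a pseudocount of 50 and 0.028 with stage means, in place of 0.30. Those chosen in A to J and read in K to R had -0.46 with stage means to -0.011 with a pseudocount of 1, in place of -0.36. The number of members without overlap was 2 to 7 with 1 library left out. DESeq2 called 15 of 1985 genes for stage 39 against 37/38 and 2 for stage 41 against 37/38. With low counts kept, edgeR called 41, 10 and 8 of 16101 genes for stage 39 against 37/38, 41 against 39 and 41 against 37/38. Of these genes 3, 9 and 3 were lower at the later stage. The last 2 comparisons each called 1 member, rank 4. The cause of these changes was not tested. The other alternatives, leaving out each library included, called 0. Same-numbered libraries did not deviate together (16 pairs, r from -0.14 to 0.07), and the replicate block gave 0 calls in every comparison, as without it, with fitted changes of -1.60 and -3.26 for ranks 1 and 2. Counts per library limit what low members can show.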
